A study of Mus musculus with 9 samples.

Results

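Genes for the machinery of protein synthesis were followed in 9 RNA sequencing libraries of mouse skeletal stem and stromal cells. They are the protein-coding genes of the expression table whose symbol begins with Rpl, Rps, Mrpl, Mrps, Eif or Eef and a digit, or whose description names a tRNA synthetase. The rule found 39 of 8329 genes, of which 33 matched by symbol and 6 by description alone. It gave 16 cytosolic ribosomal protein genes, 6 mitochondrial ribosomal protein genes, 5 initiation factor genes, 1 gene with an elongation factor symbol, 6 genes of tRNA synthetases and their complex, and 5 regulators that carry a ribosomal or factor symbol. The table used here holds only some of the genes of each class, so nothing is said of other ribosomal proteins. One member, Rpl13a-ps1, was listed at 0 in all 9 libraries, and the other 38 passed the filter on low values.

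The study asked how periosteal skeletal stem cells (P-SSCs), which lie on the outer surface of bone, behave after a femur is transplanted under the skin of a second mouse. It compared wild-type C57BL/6J cells in 3 groups of 3 libraries: mesenchymal stem cells of the bone marrow (BM-MSCs) at day 0, P-SSCs at day 0, and graft P-SSCs at day 3 after bone transplantation. The study sorted its P-SSCs and BM-MSCs as CD51+CD200+ cells, and its methods exclude CD45, Ter119 and CD31, surface proteins of blood and endothelial cells. Replicates of a group came from different mice, and whether groups share mice is not given. The study pooled RNA of 2 mice where applicable. Replicate 2 of the BM-MSCs and replicate 2 of the P-SSCs carry names that join 2 numbers, and what these numbers mean is not stated. Values are FPKM, which scales fragments to transcript length and library total, so levels can be compared between genes.

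Library totals ranged from 16890241 to 21315438 fragments. Correlations between libraries of a group were 0.945 to 0.956 for BM-MSCs and 0.982 to 0.992 for graft P-SSCs. P-SSC replicate 3 stood apart, with r = 0.870 and 0.858 against P-SSC replicates 1 and 2. Against the graft libraries it had r = 0.826 to 0.839, where P-SSC replicates 1 and 2 had 0.769 to 0.803. Of 7 blood and immune markers in the table, the hemoglobin gene Hba-a2 was at 748, 618 and 2200 FPKM in BM-MSCs and between 0.531 and 20.2 FPKM in the other libraries, and the summed level of the list was 1165 to 2817, 16.6 to 79.4 and 36.2 to 94.2 FPKM in BM-MSCs, P-SSCs and graft P-SSCs. Of 6 of these markers tested, the macrophage genes Csf1r (0.248 to 0.835 against 5.57 to 6.31 FPKM) and Adgre1 (0 against 0.907 to 2.75 FPKM) were called higher in graft P-SSCs than in P-SSCs, and the muscle gene Myl1 was called lower (1.77 to 6.47 against 0 to 0.405 FPKM). Their part in the graft results was not tested. Ptprc, which encodes CD45, was at 0 in the P-SSCs and between 0.113 and 1.35 FPKM elsewhere. Only 1 periosteal marker, Postn, and 1 marrow stromal marker, Trf, were in the table, and each was highest in the cells its list names, Postn in both P-SSC groups and Trf in BM-MSCs.

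Ribosomes in the cytosol translate the messages of the nucleus and are built from a large and a small subunit, whose proteins are named RPL and RPS. Mitochondria have their own ribosomes, with proteins named MRPL and MRPS, which are also encoded in the nucleus and translate the few messages of the mitochondrial genome. Initiation factors bring the message, the first tRNA and both subunits together, and tRNA synthetases load each tRNA with its amino acid. Growing cells make many ribosomes, and messages of cytosolic ribosomal proteins typically start with a C followed by a run of pyrimidines, the 5' terminal oligopyrimidine (TOP) motif, through which the mTORC1 pathway controls their translation.

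The sequence around the transcription start shows which members have such a run, so the windows of the cytosolic members that changed most or have a run are given here beside 1 mitochondrial ribosomal protein and 2 initiation factors. Each window runs from 20 bases before to 10 bases after a RefSeq start on GRCm38.p6, on the transcribed strand, 5' to 3'. Capitals mark a C followed by at least 7 bases that are each C or T. The windows are chr5:107900508-107900537 (plus strand) for Rpl5, chr14:18270977-18271006 (minus strand) for Rpl15, chr9:66946066-66946095 (plus strand) for Rps27l, chr7:4792945-4792974 (plus strand) for Rpl28, chr8:123102330-123102359 (plus strand) for Rpl13, chr5:121204481-121204510 (plus strand) for Rpl6, chr3:95871505-95871534 (minus strand) for Mrps21, chr11:69921949-69921978 (minus strand) for Eif5a and chr11:69672414-69672443 (minus strand) for Eif4a1. By these RefSeq starts each covers the promoter's last bases and the first bases of exon 1. The gene coordinates of the expression table begin further upstream for Rpl5 (107900502), Rpl15 (18271391, minus strand), Rpl28 (4792874) and Rpl6 (121204481). By those coordinates these windows lie inside the gene.
Rpl5: CTCTTTCTCacgtcgcttgcgtgctggtgg
Rpl15: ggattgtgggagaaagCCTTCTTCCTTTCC
Rps27l: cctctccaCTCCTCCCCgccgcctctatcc
Rpl28: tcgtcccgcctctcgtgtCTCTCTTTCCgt
Rpl13: gtcaCTTCCCTTTCgcctgattttgattgg
Rpl6: gatcttggtcacctcccgtcattgcttata
Mrps21: gcgtagCTTCCTCCCgtcgcgggactccgt
Eif5a: gtgtaaagtaccgaagccgggatggttgta
Eif4a1: cgcctacaaagtaacgtcacgtcgagttgc

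A run of this kind was found in 5 of the 12 cytosolic ribosomal protein genes with a window, in 1 of 4 mitochondrial ones (Mrps21) and in 7 of all 32 members with a window, against 11.7% of 17491 protein-coding RefSeq genes. In Rpl15 and Rpl28 the run reaches over the RefSeq start, whereas in Rpl5, Rpl13, Rps27l and Mrps21 it ends before it. By the gene coordinates of the expression table the run of Rpl5 lies inside the gene. Some genes have several annotated starts, 6 in the case of Eif5a, and none of those 6 windows held a run. Of the 11 members with a window that were higher in graft P-SSCs than in P-SSCs (below), 4 had a run, and of the 21 others 3 had one. A match is only a description of these letters, and which start the cells used was not measured.

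Cytosolic ribosomal proteins and initiation factors were the most abundant classes among the members. Their means over the 9 libraries had a median of 314 FPKM over the 15 ribosomal protein genes that passed the filter and of 363 FPKM over the 5 initiation factor genes, against 49.4 FPKM for the 6 mitochondrial ribosomal protein genes and 9.04 FPKM for the 1948 genes tested. Of the 15, 13 lay in the top 10% of all genes tested, as did 4 of 5 initiation factors and 2 of 6 mitochondrial ribosomal proteins. Rps14, of the small subunit, was the highest at a mean of 1113 FPKM, followed by Rpl13 at 957 FPKM and then by the initiation factor gene Eif5a at 753 FPKM. The lowest cytosolic member was Rps27rt, a retrotransposed copy of Rps27, at 14.0 FPKM, and its reads may be shared with the parent gene, so its values are uncertain.

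**Figure D1:**
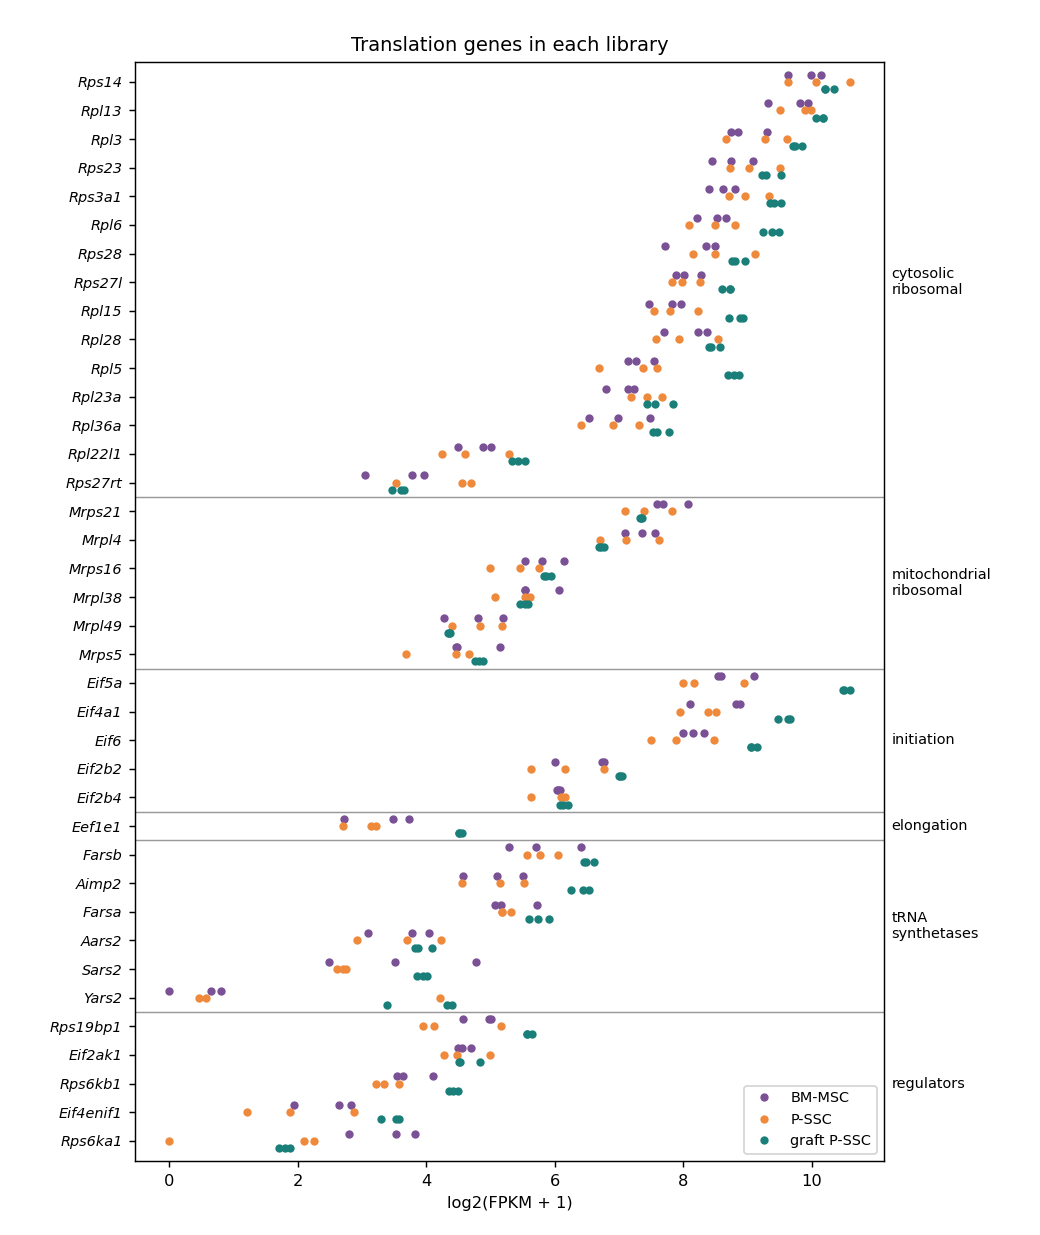
Level of the 38 members in each library as log2(FPKM + 1), with 3 points per group (BM-MSC, P-SSC and graft P-SSC on 3 lines per gene) and members ordered by class and mean level. The 3 graft points lie close together in most rows, and in Eif5a, Rpl5 and Rpl15 they lie to the right of all other libraries.

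P-SSC replicate 3 was the lowest P-SSC library in 14 of 15 genes, P-SSC replicate 2 the highest in 14 of 15, and BM-MSC replicate 1 the lowest BM-MSC library in 14 of 15. The mitochondrial members showed the same order of libraries, in 5 of 6 genes each. The SD between replicates on the log2 scale had a median over the 15 genes of 0.46 in P-SSCs, 0.27 in BM-MSCs and 0.10 in graft P-SSCs. Fragments behind a member's value ranged from 0 to 37362, and the spread between replicates was larger than counting error alone would give in 37 of 38 members in BM-MSCs, 37 in P-SSCs and 31 in graft P-SSCs.

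The first comparison asked whether P-SSCs and BM-MSCs differ at day 0. None of the 15 cytosolic and none of the 6 mitochondrial ribosomal protein genes passed the limma test, 0 of either class had an unadjusted p under 0.05, and limma voom on whole fragments also called 0. With quantile normalization 2 cytosolic members, Rps3a1 and Rpl23a, were called higher in P-SSCs. The same 3 counts were 0 for initiation factors and tRNA synthetases. The test was limma on log2(FPKM + 1) over 1948 genes, and a gene was called where its p, after Benjamini-Hochberg adjustment, was under 0.05. Only 1 of 38 members was called, the kinase gene Rps6ka1, which was lower in P-SSCs. Among all genes tested 9.80% were called higher and 14.4% lower in P-SSCs. The libraries of both groups did not overlap in 1 member, against 32.1% of all genes.

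Rps6ka1 encodes RSK1, a kinase of the MAPK pathway that phosphorylates ribosomal protein S6. It measured 10.6, 5.96 and 13.2 FPKM in BM-MSCs, 3.30, 0 and 3.78 FPKM in P-SSCs and 2.69, 2.28 and 2.48 FPKM in graft P-SSCs. All BM-MSC libraries were above all others, and no fragment was counted in P-SSC replicate 2, where the other 2 P-SSC libraries had 129 and 142. The log2 fold change was -1.93 ± 0.57 (SE, adjusted p = 0.0335, limma). The call was lost without BM-MSC replicate 1 or 3 or any graft library. It was also lost with a pseudocount of 0.1 in place of 1 and by limma voom. There the estimate was larger but less certain, at -3.12 ± 1.22 and -4.03 ± 1.47 (SE). The blood markers above were also highest in BM-MSCs. Their part in this difference was not tested.

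Median log2 fold changes between P-SSCs and BM-MSCs were 0.11 for the cytosolic ribosomal proteins and -0.32 for the mitochondrial ones, beside -0.06 for all genes tested. Small-subunit members had a median of 0.36 over 6 genes and large-subunit members of -0.01 over 9. The cytosolic estimates ran from -0.12 for Rpl36a to 0.66 for Rps27rt. Without P-SSC replicate 3 the number of members called rose from 1 to 5, with Rps3a1 and Rps27rt higher and Eif5a, Rps19bp1 and Rps6ka1 lower in P-SSCs. It was 2 without BM-MSC replicate 2 and 0 without BM-MSC replicate 1 or 3 or any graft library.

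The second comparison asked what changed in P-SSCs by day 3 in the graft. Of the 38 members, 12 were higher in graft P-SSCs and none was lower, while 22.6% of all genes tested were called higher and 11.5% lower. The 12 were 4 of 15 cytosolic ribosomal proteins (Rpl5, Rpl15, Rpl6, Rps27l), 3 of 5 initiation factors (Eif5a, Eif4a1, Eif6), Eef1e1, Aimp2 and 3 of 5 regulators (Eif4enif1, Rps19bp1, Rps6kb1), but none of the 6 mitochondrial ribosomal proteins, of which 0 had an unadjusted p under 0.05 and 0 were called by limma voom. Libraries did not overlap in 24 members, 23 of them higher in the graft, against 50.6% of all genes in either direction. Called higher were 31.6% of members, and whether that differs from the share of all genes was not tested.

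The values of all genes shifted between these groups, with a median log2 fold change of 0.26 over the 1948 genes, which the median-of-ratios scaling brought to 0.02. With that scaling the members called fell from 12 to 6 (Rpl5, Eif5a, Eif4a1, Eef1e1, Rps19bp1 and Rps6kb1, all higher), and the calls over all genes went from 441 higher and 224 lower to 311 higher and 302 lower. With quantile normalization they were 312 higher and 355 lower, and 14 members were called higher and 1, Mrpl4, lower (-0.66, adjusted p = 0.0348). Changes are therefore best read beside 0.26. In bulk samples, fewer cells of a type and less RNA per cell cannot be told apart.

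**Figure D2:**
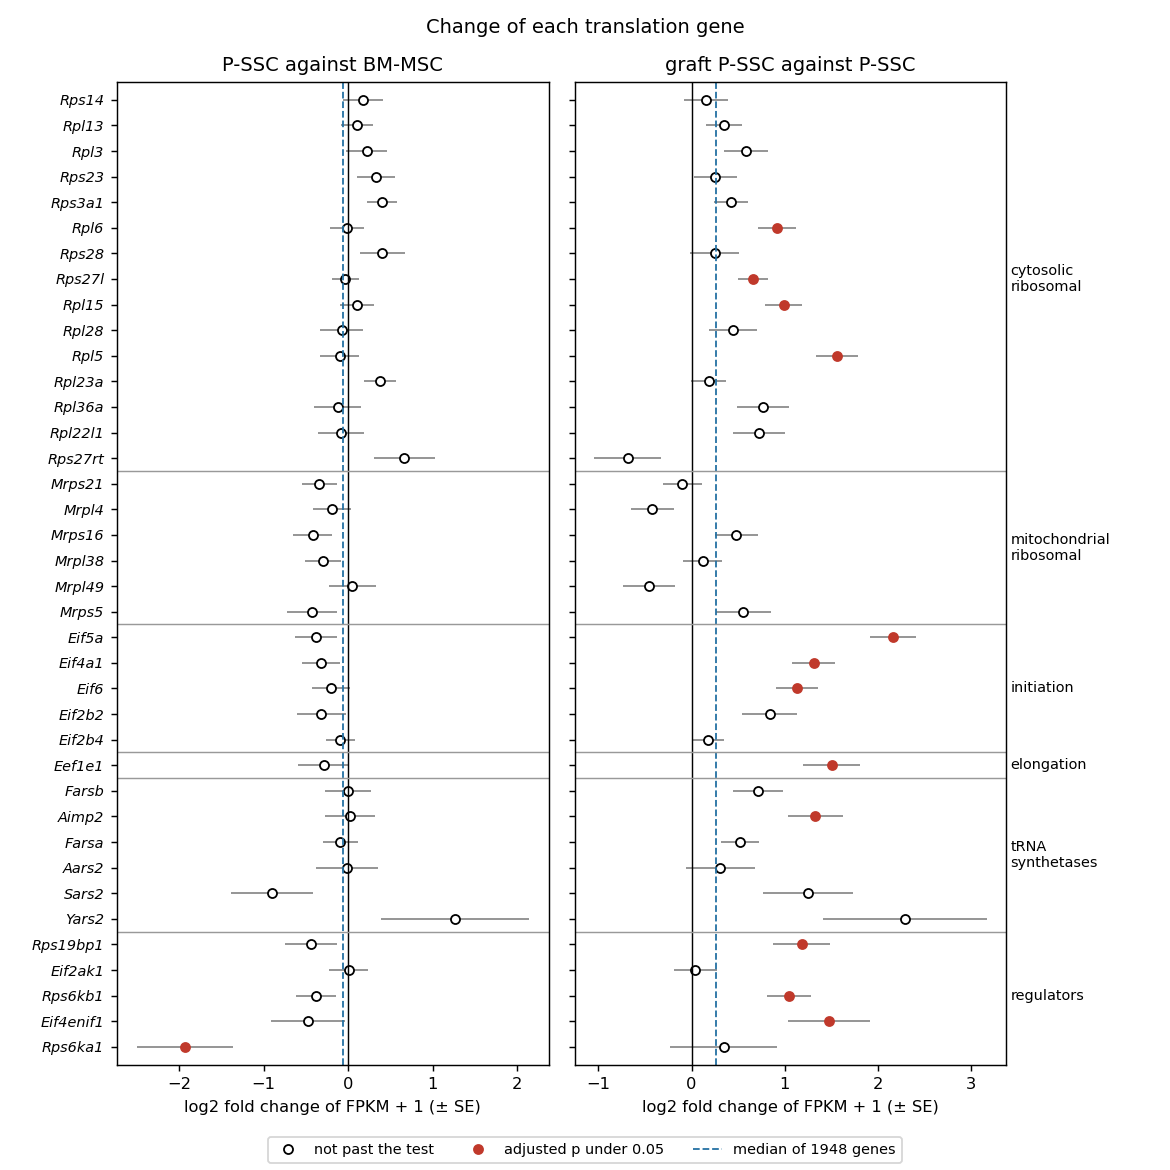
Log2 fold change of log2(FPKM + 1) with its SE for each of the 38 members, for P-SSC against BM-MSC (left) and graft P-SSC against P-SSC (right). Filled points passed the test at an adjusted p under 0.05, and the dashed line is the median of all 1948 genes; on the left only Rps6ka1 is filled, and on the right 12 members are, all to the right of the dashed line.

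Eif5a changed most among the called members. The factor it encodes binds the ribosome and helps it past sequences at which peptide bonds form slowly, and it is the only protein known to carry the modified amino acid hypusine. Eif5a measured 386, 373 and 551 FPKM in BM-MSCs, 254, 286 and 491 FPKM in P-SSCs and 1436, 1548 and 1449 FPKM in graft P-SSCs. The lowest graft library was 2.6 times the highest of any other library. The log2 fold change from P-SSCs to graft P-SSCs was 2.16 ± 0.25 (SE, adjusted p = 0.000198, limma), a 4.48-fold change, and it was 1.83 with the median-of-ratios scaling.

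Both enzymes that make hypusine on this factor were in the table and rose with it. Dhps, deoxyhypusine synthase, measured 8.70, 9.25 and 14.7 FPKM in P-SSCs and 41.7, 35.4 and 43.3 FPKM in graft P-SSCs, and its log2 fold change was 1.82 ± 0.27 (SE, adjusted p = 0.000864, limma). Dohh, deoxyhypusine hydroxylase, measured 12.7, 18.6 and 21.7 FPKM in P-SSCs and 30.8, 32.6 and 31.7 FPKM in graft P-SSCs, with a log2 fold change of 0.84 ± 0.23 (SE, adjusted p = 0.0203, limma). Graft libraries were above all P-SSC libraries for both enzymes. Both belong to a list of 23 other cytosolic translation genes, of which 7 were in the table, and Dohh was picked from it after its values were seen.

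Eif4a1 encodes the RNA helicase of the cap-binding complex, which unwinds the start of messages. It stood at 365, 334 and 247 FPKM in P-SSCs and at 710, 813 and 797 FPKM in graft P-SSCs, again without overlap. The log2 fold change was 1.31 ± 0.23 (SE, adjusted p = 0.00188, limma). Eif6 keeps free large subunits from joining small ones and has a role in making the large subunit. It measured 237, 357 and 180 FPKM in P-SSCs and 533, 535 and 566 FPKM in graft P-SSCs, a log2 fold change of 1.13 ± 0.23 (SE, adjusted p = 0.00399, limma), which missed the threshold with the median-of-ratios scaling (0.80, adjusted p = 0.0679). Eif2b2 and Eif2b4 encode subunits of the factor that reloads eIF2 with GTP, the target of the integrated stress response. Their log2 fold changes were 0.84 (adjusted p = 0.0522) and 0.18 (adjusted p = 0.462), so that neither passed the test, though Eif2b2 was called by limma voom (0.85, adjusted p = 0.0486) and with the replicate block (adjusted p = 0.0287).

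Rpl5 had the largest change of the ribosomal protein genes. It encodes the large-subunit protein that binds 5S ribosomal RNA. Rpl5 measured 141, 153 and 186 FPKM in BM-MSCs, 165, 193 and 102 FPKM in P-SSCs and 413, 441 and 467 FPKM in graft P-SSCs. Every graft library was more than 2 times as high as any other library. The log2 fold change from P-SSCs was 1.56 ± 0.23 (SE, adjusted p = 0.000713, limma), and it was the 1 cytosolic ribosomal protein gene still called with the median-of-ratios scaling, at 1.23 (adjusted p = 0.00948). Of its exon bases, 953 are shared with Fam69a on the other strand and 94 with Snord21, and it is not known here whether the counting used strand.

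Rpl15, Rpl6 and Rps27l were called as well. Rpl15 stood at 221, 301 and 186 FPKM in P-SSCs and at 421, 473 and 489 FPKM in graft P-SSCs, a log2 fold change of 0.99 ± 0.20 (SE, adjusted p = 0.00455, limma). Rpl6 stood at 360, 446 and 271 against 608, 671 and 723 FPKM, a log2 fold change of 0.92 ± 0.20 (SE, adjusted p = 0.00661, limma). Rps27l encodes a close relative of the small-subunit protein RPS27 and is a target of p53 in other cells. It stood at 253, 307 and 227 against 391, 423 and 422 FPKM, a log2 fold change of 0.66 ± 0.16 (SE, adjusted p = 0.0108, limma). None of these 3 passed the test with the median-of-ratios scaling, where the adjusted p were 0.0874, 0.123 and 0.283.

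The other cytosolic members did not pass the test, but Rps14 (0.89, adjusted p = 0.00163), Rpl13 (0.72, adjusted p = 0.00911) and Rpl3 (0.78, adjusted p = 0.0101) were called higher with quantile normalization. With the median-of-ratios scaling these 3 estimates were -0.18, 0.02 and 0.26, so that the sign for Rps14 depended on the scaling, and it was also below 0 without P-SSC replicate 3 (-0.08). As deposited, log2 fold changes were 0.76 for Rpl36a (adjusted p = 0.0610), 0.72 for Rpl22l1 (adjusted p = 0.0695), 0.59 for Rpl3 (adjusted p = 0.0878), 0.44 for Rpl28 (adjusted p = 0.210) and 0.43 for Rps3a1 (adjusted p = 0.0961). Rps14 measured 1069, 1550 and 795 FPKM in P-SSCs and 1179, 1179 and 1309 FPKM in graft P-SSCs, and Rpl13 729, 1014 and 950 against 1077, 1164 and 1156 FPKM. Their log2 fold changes were 0.16 and 0.35. Rps23, Rps28 and Rpl23a had estimates of 0.26, 0.25 and 0.19, and Rps27rt one of -0.69 (adjusted p = 0.174), which passed the test without P-SSC replicate 3 (-1.05, adjusted p = 0.0144). With the median-of-ratios scaling Rps23, Rps28 and Rpl23a were also below 0, at -0.07, -0.08 and -0.14. By subunit, 3 of 9 large-subunit members and 1 of 6 small-subunit members were called, with medians of 0.72 and 0.25, and the difference between subunits was not tested.

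Estimates for the 6 mitochondrial ribosomal proteins ran from -0.45 to 0.55, and none passed the test. Mrpl4, of the large subunit, measured 136, 189 and 163 FPKM in BM-MSCs, 137, 196 and 104 FPKM in P-SSCs and 102, 105 and 108 FPKM in graft P-SSCs. Mrpl49 measured 27.5, 35.2 and 20.2 FPKM in P-SSCs and 19.5, 19.6 and 19.3 FPKM in graft P-SSCs, where all graft libraries were lower. Mrps21 measured 167, 227 and 136 against 163, 159 and 162 FPKM, with overlap. The log2 fold changes of these 3 were -0.42 (adjusted p = 0.186), -0.45 (adjusted p = 0.245) and -0.10 (adjusted p = 0.745).

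Mrps5 and Mrps16, of the small subunit, lay above all P-SSC libraries in the graft. Mrps5 measured 21.0, 24.4 and 11.9 against 26.2, 28.7 and 27.2 FPKM, and Mrps16 43.1, 52.9 and 30.9 against 56.2, 57.0 and 60.8 FPKM. Their log2 fold changes were 0.55 (adjusted p = 0.178) and 0.48 (adjusted p = 0.138), and that of Mrpl38 was 0.12 (adjusted p = 0.704). The median over the 6 genes was 0.01, beside 0.44 for the 15 cytosolic members and 0.26 for all genes, and with the median-of-ratios scaling these were -0.32, 0.11 and 0.02. Without P-SSC replicate 3, Mrpl4 was called lower, at -0.64 (adjusted p = 0.0207).

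Both kinds of ribosome were set side by side within each library. Median log2(FPKM + 1) of the 15 cytosolic members was 7.72, 8.23 and 8.38 in BM-MSCs, 7.99, 8.55 and 7.83 in P-SSCs and 8.72, 8.79 and 8.94 in graft P-SSCs. For the 6 mitochondrial members it was 5.53, 6.10 and 5.67, then 5.27, 5.65 and 5.30, then 5.65, 5.73 and 5.74. The graft libraries were highest in the cytosolic median. In the mitochondrial one they lay within the BM-MSC range and barely above the P-SSC libraries (lowest graft 5.6484, highest P-SSC 5.6479). From P-SSCs to graft P-SSCs the group means of these medians went from 8.12 to 8.82 and from 5.41 to 5.71. The median log2 fold changes over genes, 0.44 and 0.01, do not match these steps, since different genes can lie at the median. With the median-of-ratios scaling none of these orders held. P-SSC replicate 2, at 8.82, was above the graft libraries (8.49, 8.55 and 8.74) in the cytosolic median. In the mitochondrial one it was also above them, at 5.92, and graft replicate 1, at 5.42, was below the lowest BM-MSC library (5.49).

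The difference of both medians in a library nearly cancels any factor that scales the library as a whole. It was 2.19, 2.13 and 2.71 in BM-MSCs, 2.72, 2.90 and 2.53 in P-SSCs and 3.07, 3.06 and 3.19 in graft P-SSCs, so that each graft library was above every other library. Group means were 2.34 ± 0.32, 2.72 ± 0.19 and 3.11 ± 0.07 (SD, n = 3). The step from P-SSCs to graft P-SSCs was 0.39, that from BM-MSCs to P-SSCs was 0.37, and the first stayed between 0.30 and 0.49 under all scalings, filters, pseudocounts and left-out libraries tried. No p is given, since the classes were chosen with results of these data known and 3 libraries against 3 cannot give an exact p below 0.10.

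**Figure D3:**
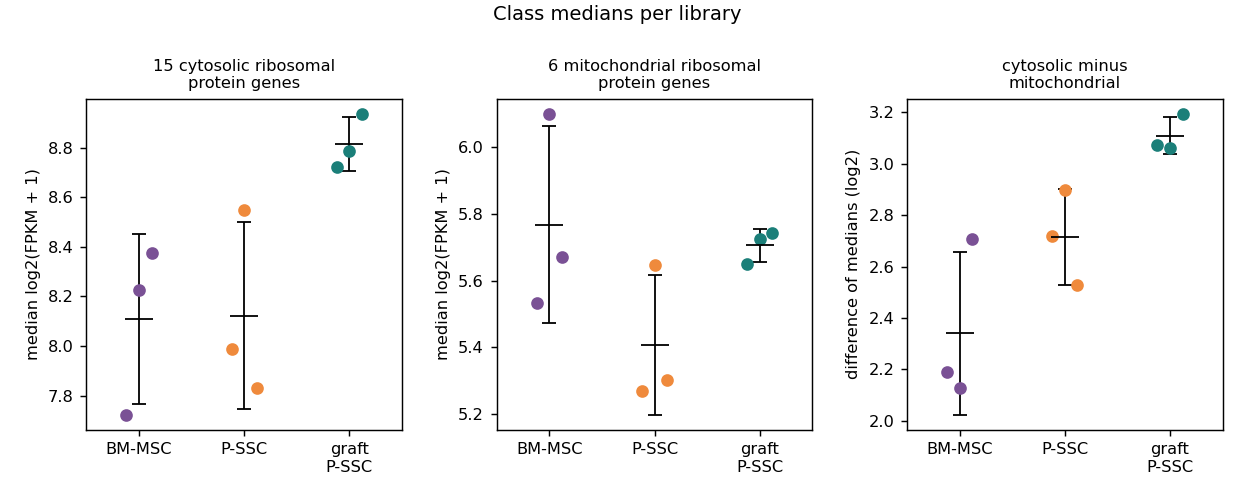
Median log2(FPKM + 1) of 15 cytosolic (left) and 6 mitochondrial (middle) ribosomal protein genes in each library, and the difference of both (right), with the mean and SD of 3 libraries per group. The vertical axes do not start at 0; in the right panel the 3 graft libraries lie between 3.06 and 3.19, above all others.

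Members were also measured against the median cytosolic ribosomal protein of their library. That median was itself higher in the graft (8.82 against 8.12), so a gene that rose less lies lower on this scale. It is taken from the same 15 cytosolic members, whose median log2 fold change was 0.44. Lower values among these 15 are therefore in part built in, since they cannot all move the same way on this scale. Of the 38 members, 14 were lower in every graft library than in every P-SSC library and 9 were higher, beside 38.1% and 11.4% of all genes tested, so that the share of lower members was near the background. Mrpl4 lay 2.03 to 2.17 below that median on the log2 scale in graft P-SSCs, 0.88 to 1.12 below it in P-SSCs and 0.63 to 1.02 below it in BM-MSCs. The lower members were Mrpl4, Mrps21, Mrpl49, Mrpl38 and Mrps16, Eif2b4, and 8 of the 15 cytosolic members (Rps14, Rps23, Rps28, Rps3a1, Rps27rt, Rpl13, Rpl23a and Rpl28). On the same scale Eif5a went from between -0.38 and 1.11 in P-SSCs to between 1.57 and 1.81 in graft P-SSCs, and Rpl5 from between -1.14 and -0.61 to between -0.07 and 0.

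Of the genes for tRNA synthetases and their complex, 1 of 6 was called, and it encodes no enzyme. Aimp2 is a scaffold of the complex that holds several cytosolic synthetases together, and Eef1e1, despite its elongation factor symbol, encodes a further scaffold of that complex (AIMP3). Aimp2 measured 34.6, 45.2 and 22.7 FPKM in P-SSCs and 75.4, 86.1 and 91.4 FPKM in graft P-SSCs, a log2 fold change of 1.33 ± 0.29 (SE, adjusted p = 0.00712, limma), which missed the threshold with the median-of-ratios scaling (adjusted p = 0.0579). Eef1e1 measured 8.28, 7.87 and 5.50 against 21.9, 22.5 and 21.7 FPKM, a log2 fold change of 1.50 ± 0.30 (SE, adjusted p = 0.00425, limma). Both were without overlap. Aimp2 shares 487 exon bases with Eif2ak1 on the other strand, and Eif2ak1 itself did not follow it (21.4, 18.3 and 31.0 against 27.6, 22.1 and 21.7 FPKM).

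Farsa and Farsb encode both chains of the cytosolic phenylalanyl-tRNA synthetase. Farsa measured 35.3, 39.0 and 35.4 FPKM in P-SSCs and 47.3, 52.4 and 59.0 FPKM in graft P-SSCs, and Farsb 65.0, 53.9 and 46.7 against 86.7, 88.6 and 97.0 FPKM. All graft libraries were higher for both chains, with log2 fold changes of 0.52 (adjusted p = 0.0815) and 0.72 (adjusted p = 0.0658), which did not pass the test.

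Aars2, Sars2 and Yars2 encode the mitochondrial synthetases for alanine, serine and tyrosine. Sars2 measured 5.12, 5.51 and 5.72 FPKM in P-SSCs and 13.5, 15.2 and 14.5 FPKM in graft P-SSCs, a log2 fold change of 1.26 (adjusted p = 0.0732), but BM-MSC replicate 3 was higher still at 26.5 FPKM. Aars2 overlapped between the groups, with a log2 fold change of 0.31 (adjusted p = 0.557). Yars2 was nearly silent in 5 of 9 libraries and clear in the rest. It measured 0.571, 0.748 and 0 FPKM in BM-MSCs, 0.488, 0.376 and 17.5 FPKM in P-SSCs and 20.1, 19.1 and 9.49 FPKM in graft P-SSCs, from 13, 19, 0, 13, 9, 449, 480, 548 and 230 fragments. P-SSC replicate 3 thus lay with the graft libraries, and the log2 fold change of 2.29 ± 0.88 (SE) had an adjusted p of 0.0716. Without that library it was 3.52 (adjusted p = 7.9e-05).

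Regulators were called in 3 of 5 cases. Rps6kb1 encodes S6K1, the kinase through which mTORC1 phosphorylates ribosomal protein S6, and measured 11.0, 8.29 and 9.13 FPKM in P-SSCs and 21.6, 20.4 and 19.5 FPKM in graft P-SSCs, a log2 fold change of 1.05 ± 0.24 (SE, adjusted p = 0.00788, limma), which fell to 0.60 with quantile normalization and was not called (adjusted p = 0.146). Rps19bp1, which encodes a nucleolar protein that binds ribosomal protein S19, measured 14.5, 16.5 and 34.8 against 46.3, 49.4 and 46.6 FPKM, a log2 fold change of 1.18 ± 0.30 (SE, adjusted p = 0.0144, limma), which missed the threshold without P-SSC replicate 1 or graft replicate 2. Eif4enif1 encodes 4E-T, which binds the cap-binding protein eIF4E and represses messages. It measured 2.70, 1.32 and 6.38 against 11.0, 10.6 and 8.78 FPKM, a log2 fold change of 1.47 ± 0.44 (SE, adjusted p = 0.0279, limma), and the call was lost with the median-of-ratios scaling (1.21, adjusted p = 0.0527), with no filter on low values, with only the 2 groups compared, and without replicate 1 or 2 of the P-SSCs or any graft library. Eif2ak1, the heme-regulated kinase of eIF2, had a log2 fold change of 0.04 (adjusted p = 0.910), and Rps6ka1 of 0.34 (adjusted p = 0.678).

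**Figure D4:**
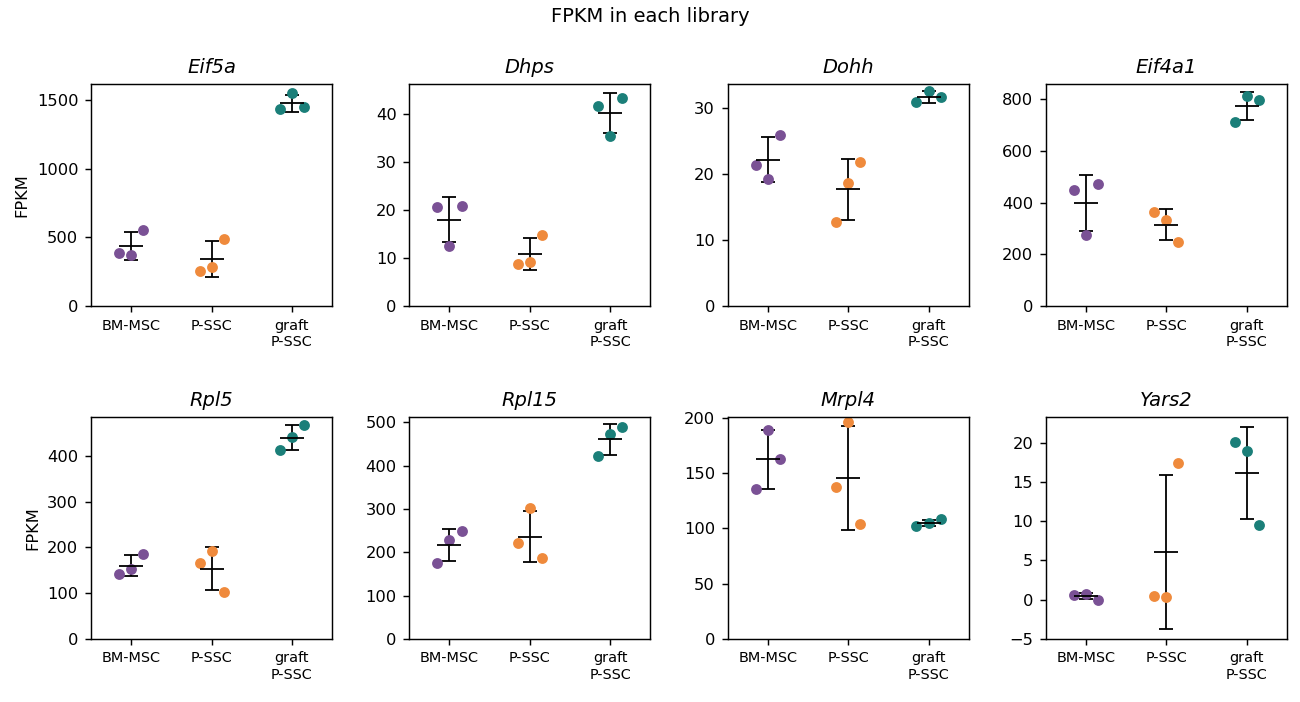
FPKM of 8 genes in each library (points) with the mean and SD of 3 libraries per group: Eif5a with both hypusine enzymes Dhps and Dohh, Eif4a1, Rpl5, Rpl15, Mrpl4 and Yars2. Graft libraries lie above all others in the first 6 panels, Mrpl4 is near 105 FPKM in the graft, and P-SSC replicate 3 is the 1 P-SSC library with Yars2 at 17.5 FPKM.

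Against BM-MSCs, graft P-SSCs had 14 of 38 members higher and 1 lower, where 25.7% of all genes tested were called higher and 16.2% lower. The groups did not overlap in 28 members, against 64.5% of all genes. This comparison shares the graft libraries with the one above and is no independent check of it. The called cytosolic ribosomal proteins numbered 7 of 15: besides Rpl5 (log2 fold change 1.46, adjusted p = 0.000843, limma), Rpl15, Rpl6 and Rps27l, they were Rps3a1 at 0.82 (adjusted p = 0.00572), Rpl3 at 0.80 (adjusted p = 0.0236) and Rpl23a at 0.56 (adjusted p = 0.0377). With the median-of-ratios scaling 2 of these 7 were still called, Rpl5 and Rpl15, whereas quantile normalization gave 10 of 15 called higher. The last 3 were higher in P-SSCs than in BM-MSCs by 0.39, 0.22 and 0.38 on the log2 scale without passing the test.

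Outside the cytosolic ribosome, the members higher in graft P-SSCs than in BM-MSCs were Eif5a, Eif4a1, Eif6, Eef1e1, Aimp2, Rps6kb1 and Yars2. Calls were lost for Eif6 (adjusted p = 0.0981) and Rps6kb1 (adjusted p = 0.183) with the median-of-ratios scaling, and for Eef1e1 (adjusted p = 0.0765) and Rps6kb1 (adjusted p = 0.382) with quantile normalization. Eif5a had a log2 fold change of 1.78 ± 0.25 (SE, adjusted p = 0.00042, limma) and Yars2 of 3.55 ± 0.88 (SE, adjusted p = 0.0101, limma). The lower one was Rps6ka1, at -1.59 ± 0.57 (SE, adjusted p = 0.0484, limma). Its call was lost with a pseudocount of 0.1 (-1.89, adjusted p = 0.240), with no filter on low values and by limma voom (-1.92, adjusted p = 0.183). Mitochondrial ribosomal proteins had a median of -0.29, 0 of 6 were called by limma or limma voom, 1 had an unadjusted p under 0.05, and that one was Mrpl4 at -0.61 (adjusted p = 0.0542), which was called lower with the median-of-ratios scaling at -0.86 (adjusted p = 0.0459), with quantile normalization (adjusted p = 0.0274), with the replicate block (adjusted p = 0.0490) and without P-SSC replicate 3 (adjusted p = 0.0135). Mrps21 was called lower with quantile normalization (-0.46, adjusted p = 0.0367) and without P-SSC replicate 3 (-0.44, adjusted p = 0.0476). The median of all genes in this comparison was 0.28. Under that scaling 9 members were called, 7 higher and 2 lower, and the calls over all genes went from 501 higher and 315 lower to 387 higher and 364 lower (387 and 405 with quantile normalization). Without P-SSC replicate 3, which enters only through the shared spread, the number called was 24. The calls of Rps6ka1, Rpl3, Rpl23a and Rps6kb1 were each lost without any 1 of the graft libraries. They were also lost without BM-MSC replicates 1, 2 or 3, 1 or 2, 1 or 3, and 2 or 3 in that order. Those of Rpl23a and Rps6kb1 were lost without P-SSC replicate 1 too, and in limma with the replicate block (adjusted p = 0.0547 and 0.0572).

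Other genes of protein synthesis were taken from lists of the translation apparatus, ribosome building, mTORC1 and the response to amino acid shortage. Of the other cytosolic translation genes, 4 of 7 were higher in graft P-SSCs than in P-SSCs and none was lower, beside 22.6% and 11.5% of all genes. Besides Dhps and Dohh, they were Pabpc1, which encodes the main poly(A)-binding protein (74.8, 55.2 and 70.2 against 232, 248 and 290 FPKM; log2 fold change 1.93, adjusted p = 5.59e-05), and Rack1, a protein of the small subunit (199, 239 and 134 against 546, 552 and 626 FPKM; 1.62, adjusted p = 0.000799). Fau, which encodes a further small-subunit protein fused to a ubiquitin-like one, had a log2 fold change of 0.43 (adjusted p = 0.210). Of 3 other mitochondrial genes, Ptcd3, a protein of the mitochondrial small subunit, was higher (14.5, 16.5 and 14.8 against 28.3, 29.5 and 28.5 FPKM; 0.87, adjusted p = 0.00756), and Mterf4 and Mrm3 were not called.

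Genes for building ribosomes were higher in graft P-SSCs than in P-SSCs in 10 of 20 cases and lower in 1, beside 22.6% and 11.5% of all genes, with a median log2 fold change of 0.72 beside 0.26. The largest changes among them were in Noc2l, of a nucleolar complex for the large subunit (0.705, 0.483 and 16.0 against 51.3, 51.3 and 31.6 FPKM; 3.67, adjusted p = 0.00775), Ddx51, an RNA helicase (0.798, 0.363 and 6.19 against 16.2, 19.5 and 18.4 FPKM; 2.87, adjusted p = 0.00320), and Wdr75, of the complex that processes the first ribosomal RNA transcript (13.3, 11.6 and 12.3 against 52.7, 58.3 and 55.4 FPKM; 2.08, adjusted p = 0.000343). The lower one was Sbds, which works with a GTPase to take eIF6 off the large subunit, at 117, 109 and 110 against 67.9, 75.4 and 71.3 FPKM (-0.64, adjusted p = 0.00850). Eif6 and Sbds thus changed in opposite directions. P-SSC replicate 3 was far above the other P-SSC libraries in Noc2l and Ddx51, as in Yars2.

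Of 4 mTORC1 genes, limma called 0 between graft P-SSCs and P-SSCs, with 2 at an unadjusted p under 0.05, and 1 of the 4, Tsc1, an inhibitor of the pathway, was higher in P-SSCs than in BM-MSCs at 3.42, 1.11 and 2.91 against 1.17, 0.179 and 0.342 FPKM (log2 fold change 1.14, adjusted p = 0.0451). Between graft P-SSCs and BM-MSCs 1 of the 4 was called, Rragb, a GTPase that recruits mTORC1, which was lower (-1.16, adjusted p = 0.0470), with 3 at an unadjusted p under 0.05. Of 4 genes of the amino acid and stress response, Mthfd2, a mitochondrial folate enzyme, and Slc3a2, a chain of amino acid transporters, were higher in the graft, at 2.46 (adjusted p = 0.00159) and 0.87 (adjusted p = 0.00921). The stress-induced genes Nupr1 and Ddit3 were lower, at -1.92 (adjusted p = 3.77e-05) and -0.94 (adjusted p = 0.0126). Nupr1 fell from 557, 555 and 374 FPKM to 119, 137 and 129 FPKM.

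All 4 cell cycle genes in the table (Mcm5, Mcm6, Plk1, Cdc20) were higher in graft P-SSCs than in P-SSCs, with a summed level of 664 to 708 FPKM against 11.6 to 22.5 FPKM, and of 95.9 to 300 FPKM in BM-MSCs. Its part in the changes of the members was not tested, and time, surgery and site cannot be told apart, since the graft differs from the day 0 cells in all of these.

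Pseudogene copies can take or share reads of ribosomal protein genes. The table lists 66 rows of such copies, of which 34 were at 0 in all libraries and 9 reached a mean of 1 FPKM. Their sum was 1.12% to 1.46% of the FPKM of copies and cytosolic members together, and its range over graft libraries (1.19% to 1.28%) lay inside that of the P-SSCs (1.14% to 1.46%). Exons of 18 of the 39 members overlap those of another annotated gene, 11 of them a protein-coding one.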

How the data were processed

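Poly(A) RNA of sorted cells was sequenced in 9 libraries. The deposited values are FPKM per gene, which the authors made; the submitters' processing notes name CASAVA, fastp, STAR 2.6.1d, featureCounts 1.5.0-p3 and GRCm38. Labels give either a directional or a non-directional library, so strand use is not given in the sources used here. FPKM low values are whole multiples of 1 fragment: 99.8% of 4837 single-transcript values were whole within 0.02, which gave the library totals.

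Values were tested as log2(FPKM + 1) with limma 3.58.1 in R 4.3.3, with 1 linear model over all 9 libraries, moderated variance and Benjamini-Hochberg adjustment over the 1948 genes with at least 1 FPKM in at least 3 libraries. Fold changes on this scale understate changes of low genes. The limma fit of graft P-SSCs against P-SSCs was tested on simulated data. Replicates of a group came from different mice, and intervals of counts cover counting error only.

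Members and lists were chosen with earlier results of these data known. Every member was named where its class had at most 12, and in the larger class the 6 most abundant and up to 3 called in each direction; the remaining cytosolic members were named after their values were seen. Of each other list at most 3 called genes per comparison were to be named; Dohh, Fau, Sbds, Mterf4, Mrm3, the macrophage and muscle markers and the fourth stress gene were added after their values were seen. Alternatives were another pseudocount, filter, scaling, trend, sample set, replicate block and each library left out, and limma voom on whole fragments, added after seeing the data.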

Additional observations from a re-analysis of the deposited data

How the results depend on the processing

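All 504 estimates of the 28 called member changes (18 alternatives each) kept their sign, and 65 no longer passed the threshold; 10 of the 28 passed it in every alternative run. Of 1548 estimates of the changes not called, 88 changed sign and 69 passed the threshold. Between P-SSCs and BM-MSCs the 1 member called became 0 with a pseudocount of 0.1, with no filter, with only the 2 groups compared and with limma voom, 3 with quantile normalization, and 0 to 5 with a library left out. Between graft P-SSCs and P-SSCs the 12 members called became 6 with median-of-ratios scaling and 10 to 17 with a library left out. Between graft P-SSCs and BM-MSCs the 15 became 9 with that scaling, 23 with only the 2 groups compared, and 11 to 24 with a library left out, 24 being without P-SSC replicate 3. The cause of these moves was not tested. With the replicate number as a block, 1, 13 and 15 members were called. The 15 between graft P-SSCs and BM-MSCs were not the same set: Rpl13 and Mrpl4 were gained and Rpl23a and Rps6kb1 lost. Correlations of same-numbered libraries, with group means taken out, ran from -0.434 to 0.132. These cannot tell whether groups share mice, since the 3 deviations in a group sum to 0 and replicate numbers need not follow mice. Totals of all genes called stayed within 1.5 times, but by direction the 224 lower in graft P-SSCs than in P-SSCs became 355 with quantile normalization and 149 without graft replicate 1, and the 501 higher than in BM-MSCs became 319 and 321 without graft replicate 1 or 2. Each group had 3 libraries, and without P-SSC replicate 3 the SE of Yars2 between graft P-SSCs and P-SSCs went from 0.88 to 0.39.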
